A study of Mus musculus with 10 samples.

Results

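The sites described here are ACA cut sites in mouse messenger RNA that have GG directly before the ACA, so that they read GGACA, and that the authors placed in the upper classes of their table, CellRep_high or highest. They were chosen by the deposited class and by the letter at base 4 of the deposited 11-base sequence, in which the A of the cut motif is base 6; the cleavage efficiencies were not used here to choose them. There were 608 such sites among 1626 listed sites (37.4%), 511 in the high class and 97 in the highest class, and they are called member sites below. The sources used here do not say how the classes were made, so a difference between classes is not independent of what the classes may have been built from. A gene could be named for 528 member sites in 485 genes.

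N6-methyladenosine (m6A) is a methyl mark that the Mettl3-Mettl14 complex places on messenger RNA, mostly at A in short motifs such as GGAC, and often near stop codons and in long internal exons. Reader proteins of the YTH family bind the mark and direct the RNA towards decay or other fates, and in mouse stem cells the mark is known to be needed for a timely exit from pluripotency. The bacterial RNase MazF recognises ACA in RNA and does not cut where m6A occupies its first A, so that less cutting can be read as more methylation. The enzyme used is named in no label used here.

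The study compared mouse embryonic stem cells (ESC) and embryoid bodies (EB), floating aggregates whose cells give up pluripotency and differentiate, each as wild type (WT) and with both copies of Mettl3 disrupted (written Metll3-/- in the labels, KO below). The labels describe polyA RNA libraries, 3 of ESC WT, 3 of ESC KO, 2 of EB WT and 2 of EB KO. All ESC were expanded on inactivated mouse fibroblast feeders with serum and LIF and then passaged on gelatin without serum, with LIF and the inhibitors CHIR99021 and PD0325901. EB of both genotypes were grown from such cells in suspension for 9 days with serum and without LIF or inhibitors. The sources used here do not say whether the KO line is 1 clone. The deposited table gives a single cleavage efficiency for every site in every group, from 0 where a site was not cut to 1 where it was cut in full, so no value carries a spread over libraries, no test between groups could be made, and the depth behind a value is unknown. The table holds no expression values, so neither the loss of Mettl3 nor the cell types were checked.

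The sequences of the sites on which the results turn are printed here from the deposited table, 5′ to 3′ with T for U and with GGACA in capitals. The first set shows sites with large differences between genotypes, the next a pair of paralogous genes with the same 11 bases, and the last sites that stayed little cut in KO.
Cdca4: gatGGACAgcc
Csnk1d: aatGGACAggc
Lima1: gacGGACAttg
Nup98: gatGGACAtgg
Golph3: aatGGACAagc
Arid1a (3′ site): gttGGACAtct
Ythdf1 (shared): tatGGACAact
Ythdf2 (shared): tatGGACAact
Arid1a (5′ site): gggGGACAgcc
Pdia4: agtGGACAgca
Pom121: tctGGACAgag
Ppp4r1 (little cut): tcgGGACAgct
The letter that follows the capitals is base 9. In the last 4 sequences it is g, and so it is in Cdca4 and Csnk1d, which were cut almost completely in KO. Some little-cut sites that are not printed here have another letter there.

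Member sites were little cut in WT, and in KO they were cut about as far as the listed sites in general. In ESC the median efficiency was 0.223 in WT (interquartile range over sites 0.0754 to 0.461, 468 sites) and 0.805 in KO (0.415 to 0.913, 466 sites). In EB it was 0.293 in WT (0.108 to 0.563, 473 sites) and 0.823 in KO (0.457 to 0.920, 333 sites). An efficiency of 0.8 or more was listed for 17 member sites in ESC WT (3.63%, against 20.5% of all listed sites) and 239 in ESC KO (51.3%, against 52.3%). In EB it was 40 in WT (8.46%, against 27.4%) and 179 in KO (53.8%, against 53.5%). Of all listed sites, those at exactly 0 were 48 of 1274 in ESC WT and 29 of 1224 in ESC KO. In EB they were 37 of 1294 in WT and 26 of 918 in KO. Member sites listed at exactly 0 numbered 30 in ESC WT and 11 in ESC KO, and 24 in EB WT and 9 in EB KO. The upper tail of WT and the lower tail of KO therefore overlapped, and 272 member sites had all 4 values.

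**Figure D1:**
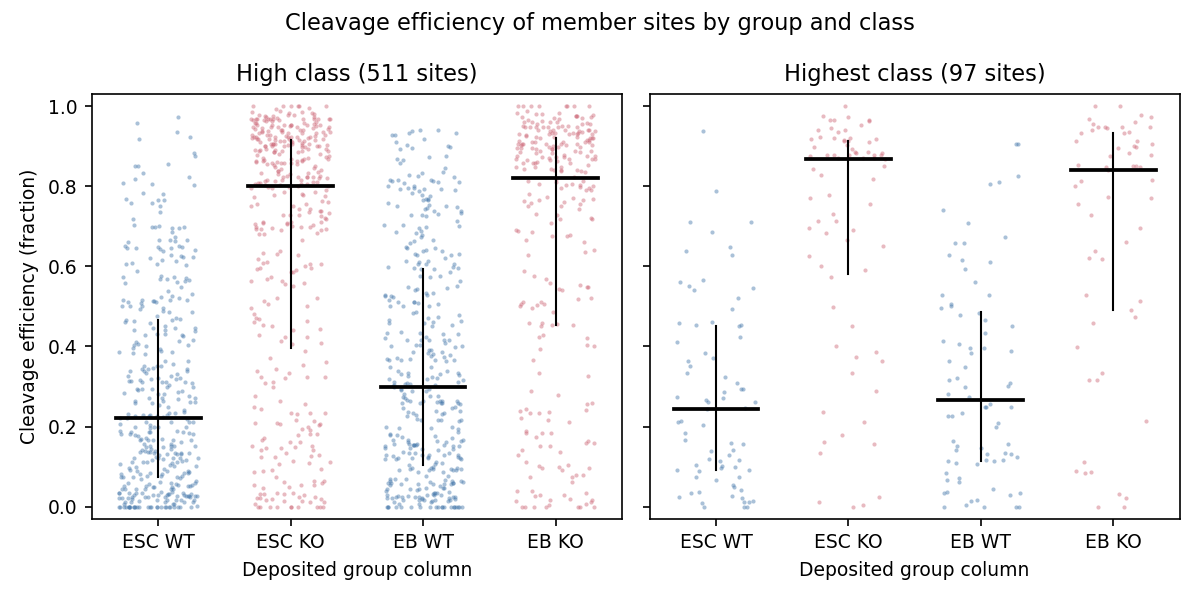
Cleavage efficiency (fraction, vertical axis) of each member site in the 4 deposited group columns (horizontal axis), high class on the left and highest class on the right, with WT in blue and KO in red; the thick bar is the median and the thin line the quartiles over sites. WT columns lie low (medians 0.222 and 0.298 in the high class) and KO columns high (0.800 and 0.821), with a tail of little-cut sites in KO.

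The comparison of KO with WT asks which sites were cut less while Mettl3 was present. In ESC KO exceeded WT at 357 of 380 member sites, with 17 below it and 6 equal. The median difference was 0.374 (95% order-statistic interval over sites 0.306 to 0.411), and 304 sites (80.0%) were higher by at least 0.10, against 55.4% of all 1046 listed sites with both values. A single member site was lower by that size, against 2.58% of all listed sites. In EB the median difference was 0.284 (0.230 to 0.339), 221 of 305 sites (72.5%) were higher by at least 0.10 against 41.9% of all listed sites, and 5 were lower by it against 5.96%. These intervals cover the variation among sites, not among cultures. Subtracting each column's median over complete sites takes 0.373 from every ESC difference and 0.266 from every EB difference. The medians of member sites were then 0.000633 and 0.0172. The amounts taken are gaps between column medians, not medians of site differences. Over all listed sites the median site difference was 0.130 in ESC and 0.0638 in EB. In the same columns, GGACA sites of the low class had KO minus WT medians of 0.0180 in ESC and −0.00669 in EB. How much a shift of a whole column adds to the differences of member sites was not tested.

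The WT value as a share of the KO value shows how much cutting was left at sites that can be cut. Among member sites cut to 0.20 or more in KO the median of WT divided by KO was 0.385 in ESC (0.347 to 0.433, 322 sites) and 0.491 in EB (0.428 to 0.558, 257 sites). WT reached at most 0.5 of KO at 202 member sites in ESC (62.7%), against 32.4% of all listed sites, and at 131 of 257 in EB, against 24% of all. The ratio was above 1 at 7 of 322 member sites in ESC, against 12.2% of all listed sites, and at 15 of 257 in EB, against 25.7%. The limit selects sites by the KO value that also enters the ratio and the difference, here and wherever it is used below. Sites with a low KO value drop out even where WT was higher, as at Dgat1 in EB (0.367 in WT, 0.130 in KO).

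The largest ESC differences lay in genes of different functions, and their sites went from near 0 in WT to near full cutting in KO. In Cdca4, a cell division cycle-associated gene, the site was at 0.0361 in WT and 0.947 in KO (CDS, chromosome 12, position 114059884 on the minus strand of mm9). The 3′ UTR site of the casein kinase gene Csnk1d was at 0.0135 and 0.918 (chromosome 11, position 120824998, minus strand). The Lima1 site, in the 3′ UTR of a gene for an actin-binding protein, was at 0.0111 and 0.881 (chromosome 15, position 99609771, minus strand). Nup98, a nuclear pore gene, had a CDS site at 0.0182 and 0.871. In EB these sites kept the order of the groups: Cdca4 was at 0.0244 in WT and 0.857 in KO, Csnk1d at 0.0163 and 0.882, Lima1 at 0.0978 and 0.883, and Nup98 at 0.0341 and 0.756.

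Others among the 10 largest ESC differences were a CDS site of Shq1, which helps to assemble H/ACA ribonucleoproteins, at 0.0455 in WT and 0.923 in KO, and a 3′ UTR site of Tmem30a, a subunit of lipid flippases, at 0.0128 and 0.879. Nrbf2, an autophagy regulator, was at 0.0732 and 0.933 and the centrosomal gene Cep57 at 0.125 and 0.973. Il6st, which encodes the signalling subunit of the LIF receptor, was at 0.0571 and 0.912. Of these sites only that of Cep57 had an EB KO value, 0.982 against 0.246 in EB WT. The Ythdf1 site among the 10 had no EB KO value either. In EB the largest differences were in the nucleoporin gene Ranbp2 (0.0588 in WT and 0.935 in KO), the Golgi gene Golph3 (0.0654 and 0.939) and the ubiquitin ligase gene Rbbp6 (0.0909 and 0.958). Csnk1d and Cdca4 came next, and among the other named sites the EB difference was 0.806 in Ythdf2, 0.795 in Eif2a, 0.785 in Lima1, 0.783 in Arid1a and 0.781 in the importin gene Ipo9. Few differences went in the other direction. In ESC a second Ranbp2 site was at 0.495 in WT and 0.373 in KO, and Elp3, the catalytic subunit gene of the Elongator complex, Errfi1, Ipo11 and the folliculin gene Flcn differed by −0.0409, −0.0292, −0.0272 and −0.0191. In EB the triacylglycerol synthesis gene Dgat1 was at 0.367 in WT and 0.130 in KO, and Elp3, Dus1l, Cth and Flcn differed by −0.176, −0.148, −0.111 and −0.106.

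The base directly after the motif went with how far a site was cut when Mettl3 was absent. Member sites followed by G had a median ESC KO efficiency of 0.387 (0.233 to 0.552, 172 sites), while those followed by A were at 0.906 (0.870 to 0.924, 85 sites), by T at 0.879 (0.824 to 0.901, 107 sites) and by C at 0.821 (0.792 to 0.861, 102 sites). EB KO gave 0.456 before G and 0.922, 0.888 and 0.857 before A, T and C. Of 76 member sites below 0.2 in ESC KO, 65 were followed by G, and so were 41 of 53 in EB KO. All member sites together were below 0.2 in KO about as often as all listed sites, 16.3% against 14.7% in ESC and 15.9% against 15.1% in EB. Sites followed by G were spread over the whole scale, since 48 of the 172 reached 0.8 in ESC KO.

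**Figure D2:**
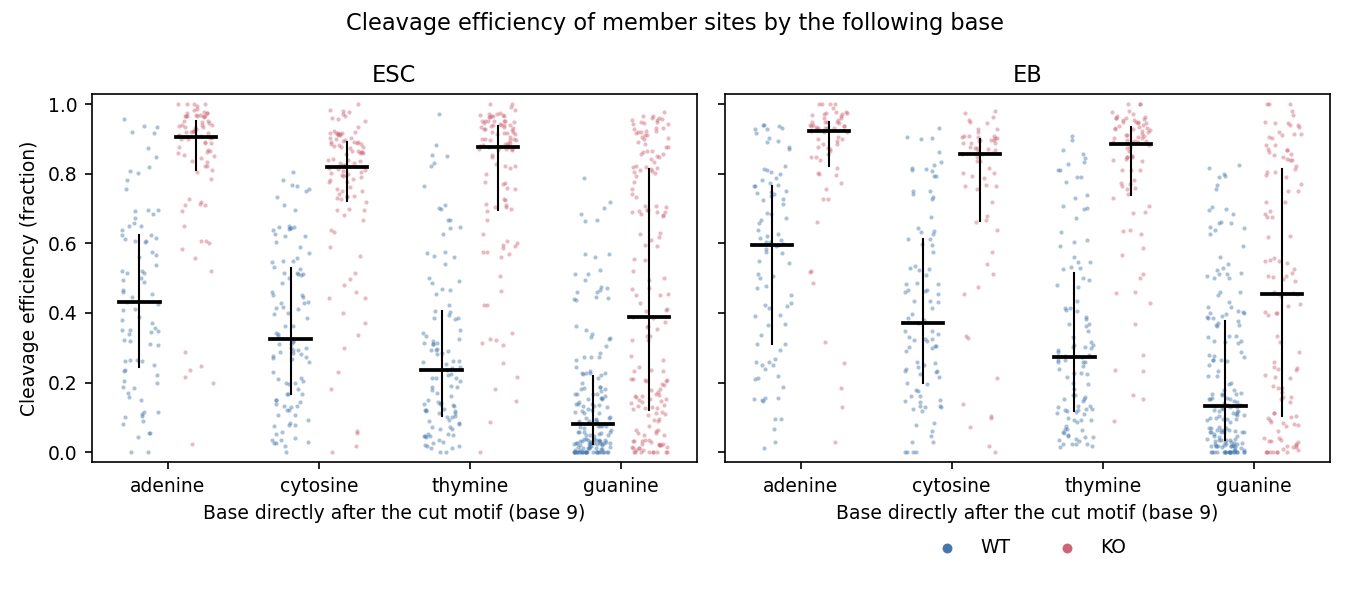
Cleavage efficiency (fraction, vertical axis) of each member site by the base after the cut motif (horizontal axis), WT in blue and KO in red, with ESC left and EB right; thick bars are medians and thin lines quartiles over sites. KO values gather near the top for adenine, thymine and cytosine (ESC medians 0.906, 0.879 and 0.821) and spread over the scale for guanine (0.387).

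The same bases ordered the WT columns, with ESC WT medians of 0.430, 0.326, 0.235 and 0.0793 for sites followed by A, C, T and G. Sites followed by G had the smallest median KO minus WT of the 4 bases, 0.202 in ESC and 0.138 in EB, and those followed by T the largest, 0.524 and 0.492. The ratio of WT to KO gave another order among sites cut to 0.20 or more in KO. Its ESC median was 0.304 before G (0.225 to 0.355, 88 sites) and 0.320 before T (0.240 to 0.407, 84 sites), against 0.459 before C (0.367 to 0.548) and 0.551 before A (0.436 to 0.646). In EB the ratio was 0.339 before T, 0.459 before G, 0.513 before C and 0.684 before A, and the interval of G overlapped those of T, C and A. In ESC the intervals before G and T did not overlap that before A. Among sites cut to 0.20 or more in KO the ESC difference between G and the other bases in KO minus WT also went from −0.226 to 0.00601, and in EB from −0.224 to −0.0499.

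Pdia4, which encodes a disulphide isomerase of the endoplasmic reticulum, held a G-followed site at 0.00128 in WT and 0.0488 in KO in ESC, and at 0.00638 and 0.0402 in EB. The nuclear pore gene Pom121, chosen after its values were seen, gave 0 and 0.0755 in ESC and 0.0702 and 0.0755 in EB. Both sites were little cut in every column, KO included. Ppp4r1, a regulatory subunit gene of protein phosphatase 4, carried 3 member sites, of which the 1 printed above was at 0.0125 in ESC WT and 0.125 in ESC KO. Its other sites, ccaGGACAtgt and accGGACAgga, reached 0.968 and 0.923 in ESC KO from 0.468 and 0.523 in WT. Ckap4, a membrane protein gene of the endoplasmic reticulum, also had 3 member sites. Those with KO values stayed at 0.210 (followed by G) and 0.308 (followed by T) in ESC KO. The 3 sites of Ccdc71l had an ESC KO value alone, of 0.00649, 0.150 and 0. T followed the site at 0 and G the others. The Flcn site, followed by C, was at 0.0556 in ESC KO. Low cutting in KO was thus not confined to sites followed by G.

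Bases before the motif went with smaller differences. At base 3, directly before GGACA, T was the commonest letter with 40.1% of member sites, against 29.6% of GGACA sites in the intermediate class, 21.4% in the low class and 10.4% of AGACA sites in the high and highest classes. Member sites with T there had a median KO minus WT of 0.440 in ESC (0.377 to 0.507) and 0.360 in EB, and those with G had 0.219 (0.106 to 0.289) and 0.0878. A and C lay between, at 0.361 and 0.368 in ESC and 0.259 and 0.266 in EB. At base 2, A gave 0.448 in ESC (0.371 to 0.520) against 0.285 for G and 0.284 for C. After the motif, base 10 was T at 35.4% of member sites, against 23.4% in the intermediate and 16.2% in the low class, and these had the largest median of that position, 0.458 in ESC (0.388 to 0.516) and 0.372 in EB. AGACA sites of the high and highest classes had T at base 10 at a like share, 37.1%.

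**Figure D3:**
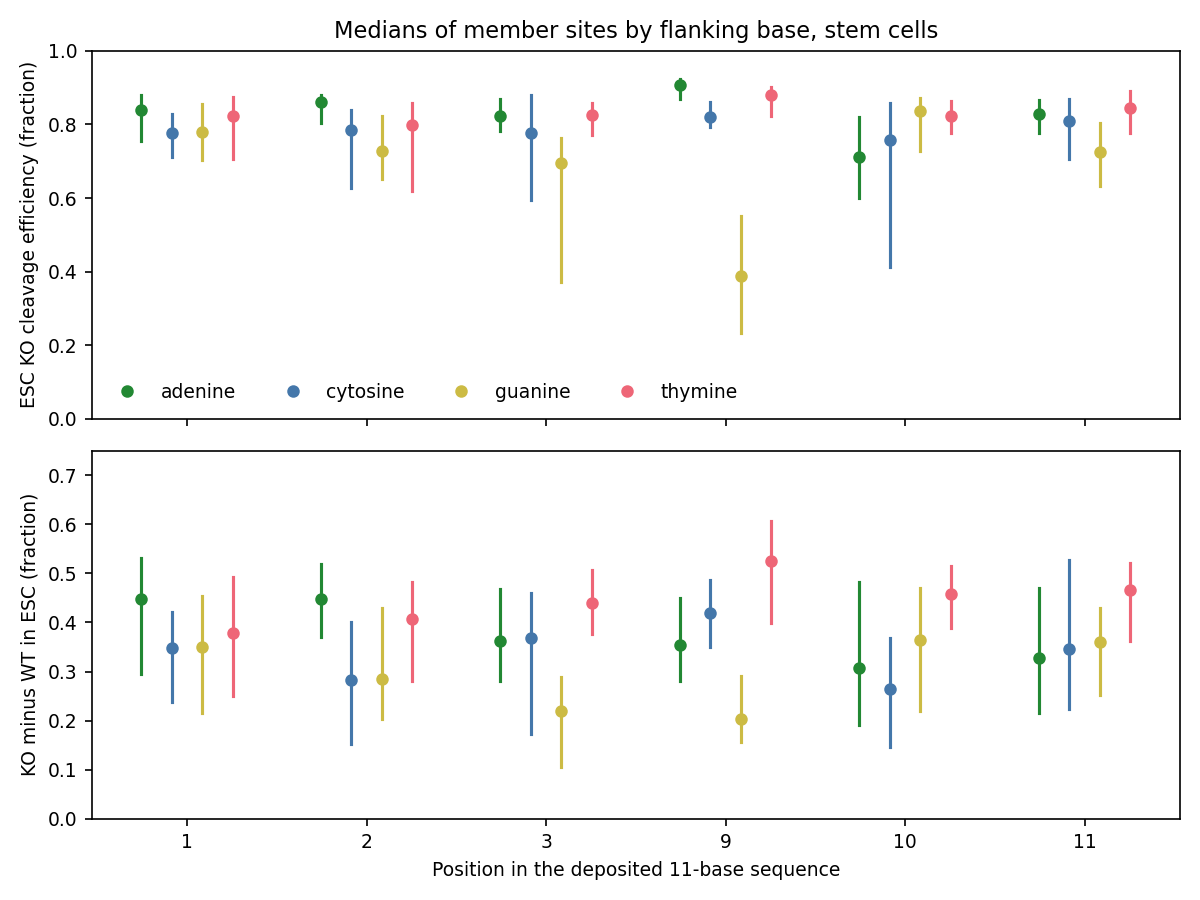
Medians of member sites in ESC by the base at each flanking position of the 11-base sequence (horizontal axis): KO cleavage efficiency (fraction) above and KO minus WT (fraction) below, with vertical lines for the 95% order-statistic interval over sites and colours for the bases. The lowest KO median is that of guanine at base 9 (0.387), and the KO minus WT medians spread most at base 9, from 0.202 for guanine to 0.524 for thymine.

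Bases 3 and 9 together separated the sites further. With G at both, 40 sites had a median ESC KO efficiency of 0.142, against 0.251 for C, 0.442 for A and 0.619 for T at base 3 before a G at base 9. The ESC difference was 0.0986 over 30 sites with G at both, and 0.578 over 33 sites with T at both. The context with C before and T after had the largest median, 0.710, over 10 sites. The Arid1a pair, from a gene of the SWI/SNF chromatin remodelling complex, shows such a contrast inside 1 exon, and its second site was chosen after its values were seen. The site gttGGACAtct was at 0.205 in WT and 0.899 in KO in ESC and 0.122 and 0.905 in EB (chromosome 4, position 133236325, minus strand). The site gggGGACAgcc was at 0.00826 and 0.133 in ESC and 0.0299 and 0.112 in EB (position 133236571). The first was far above its WT value in KO in both stages, while the second stayed low in all 4 columns.

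Low cutting before G was also seen outside the member sites, to an extent that differed with base 4 and class. GGACA sites followed by G had ESC KO medians of 0.411 in the intermediate class and 0.236 in the low class, beside 0.387 for member sites. AGACA sites followed by G in the high and highest classes had 0.714 in ESC KO and 0.767 in EB KO. The share of sites followed by G was similar, 37.3% of member sites, 38.8% of those AGACA sites, and 37.1% and 44.4% of intermediate and low GGACA sites.

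Set beside the nearest other sites of the table, member sites had lower medians in WT and similar medians in KO. The 278 AGACA sites of the high and highest classes had median efficiencies of 0.605 in ESC WT and 0.842 in ESC KO, so that their ESC difference was 0.156 (0.106 to 0.207), with 100 of 169 sites higher by at least 0.10. Their EB difference was 0.0680 (0.0370 to 0.105), with 64 of 148 sites. These counts were 59.2% of sites in ESC and 43.2% in EB, near the 55.4% and 41.9% of all listed sites. The 291 GGACA sites of the intermediate class had medians of 0.411 and 0.757 in ESC, a difference of 0.101 (0.0728 to 0.121), with 95 of 190 sites, and an EB difference of 0.0251 with 43 of 153. Those counts of intermediate GGACA sites were 50% in ESC and 28.1% in EB, both below the shares of all listed sites. The ratio of WT to KO was 0.769 in ESC for those AGACA sites and 0.825 for intermediate GGACA sites, against 0.385 for member sites. With no value per library these gaps carry no test. The intervals of the KO minus WT medians of member sites did not overlap those of the other sets.

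The high and highest classes had similar medians in all columns. In ESC the highest class had a median of 0.244 in WT and 0.867 in KO, beside 0.222 and 0.800 in the high class. Its median difference was 0.411 in ESC (0.348 to 0.524) and 0.360 in EB (0.264 to 0.488), beside 0.352 (0.285 to 0.410) and 0.260 (0.201 to 0.332) in the high class. Among sites cut to 0.20 or more in KO the gap between the classes was 0.00575 in ESC in place of 0.0584, and 0.0458 in EB in place of 0.100. In ESC 54 of 61 highest-class sites (88.5%) and 250 of 319 high-class sites (78.4%) were higher in KO by at least 0.10. In EB these were 43 of 55 (78.2%) and 178 of 250 (71.2%). All listed sites had shares of 55.4% in ESC and 41.9% in EB. The ratio of WT to KO was 0.368 and 0.394 in ESC and 0.451 and 0.496 in EB, with intervals that overlapped. Csnk1d and Tmem30a were the highest-class sites among the 10 largest ESC differences, and the second Ranbp2 site and the little-cut Arid1a site were also of that class.

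Along the transcript, member sites lay mostly in the CDS (252 of 528, 47.7%) and the 3′ UTR (248, 47.0%), with 12 in the 5′ UTR (2.27%) and 16 in transcripts without a CDS. Of all named listed sites, 55.9% were in the CDS, 31.6% in the 3′ UTR and 8.22% in the 5′ UTR. No more than 200 nt from the CDS end were 203 of 512 (39.6%), against 27.8% of all listed sites, 37.0% of AGACA sites of the high and highest classes, and 17.1% and 7.53% of intermediate and low GGACA sites. Some lay just before the stop codon. Counted from the last coding base before the stop codon, the A lay at −4 in the cyclin gene Ccnd1, −6 in Ccdc34, −13 in the lineage transcription factor gene Gata4 and −14 in the ion channel gene Piezo1. The CDS and the 3′ UTR had similar medians. The median KO minus WT was 0.396 in the CDS (0.300 to 0.487) and 0.356 in the 3′ UTR (0.265 to 0.467) in ESC, and 0.276 and 0.305 in EB, and the sign of this gap changed with the settings in both stages. The few 5′ UTR sites had a higher ESC WT median of 0.561, against 0.205 in the CDS, and a KO minus WT median of 0.235 over 7 sites in ESC and 0.207 in EB. In transcripts without a CDS the ESC KO median was 0.619, and KO minus WT was 0.221 over 13 sites in ESC and 0.118 over 11 in EB. The deposited position in the transcript, cut at its quartiles over all listed sites, gave 0.371, 0.397, 0.404 and 0.328 in ESC and 0.210, 0.295, 0.314 and 0.272 in EB in order along the transcript.

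Distance from an exon junction, the boundary of 2 exons in the matched transcript, went with the WT values. The median distance was 267 nt for member sites, against 205 nt for all listed sites, 152 nt for intermediate and 64 nt for low GGACA sites. Only 56 of 513 member sites (10.9%) were within 100 nt of a junction, against 41.8% of intermediate GGACA sites, 29.7% of all listed sites and 11.6% of AGACA sites of the high and highest classes. The ESC WT median was 0.423 under 100 nt, 0.228 from 100 nt, 0.152 from 200 nt and 0.205 from 400 nt on, while the ESC KO median stayed between 0.797 and 0.825. The KO minus WT median was 0.175 (0.0874 to 0.302, 38 sites) under 100 nt and 0.317, 0.412 and 0.411 in the bins beyond in ESC, and 0.142, 0.137, 0.335 and 0.336 in EB. The other sets shared this order. Intermediate GGACA sites had ESC medians of 0.0547 (0.0329 to 0.0957, 78 sites) under 100 nt and 0.353 (0.104 to 0.412, 32 sites) from 400 nt, and AGACA sites of the high and highest classes 0.0700 and 0.236. The ESC intervals of member and intermediate GGACA sites overlapped both under 100 nt and from 400 nt on. Of the named sites near a junction, that of the importin gene Ipo11, 45 nt away, was at 0.936 in ESC WT and 0.909 in ESC KO. Rbbp5, a subunit of histone methyltransferase complexes, differed far more at 79 nt, with 0.0208 and 0.857.

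**Figure D4:**
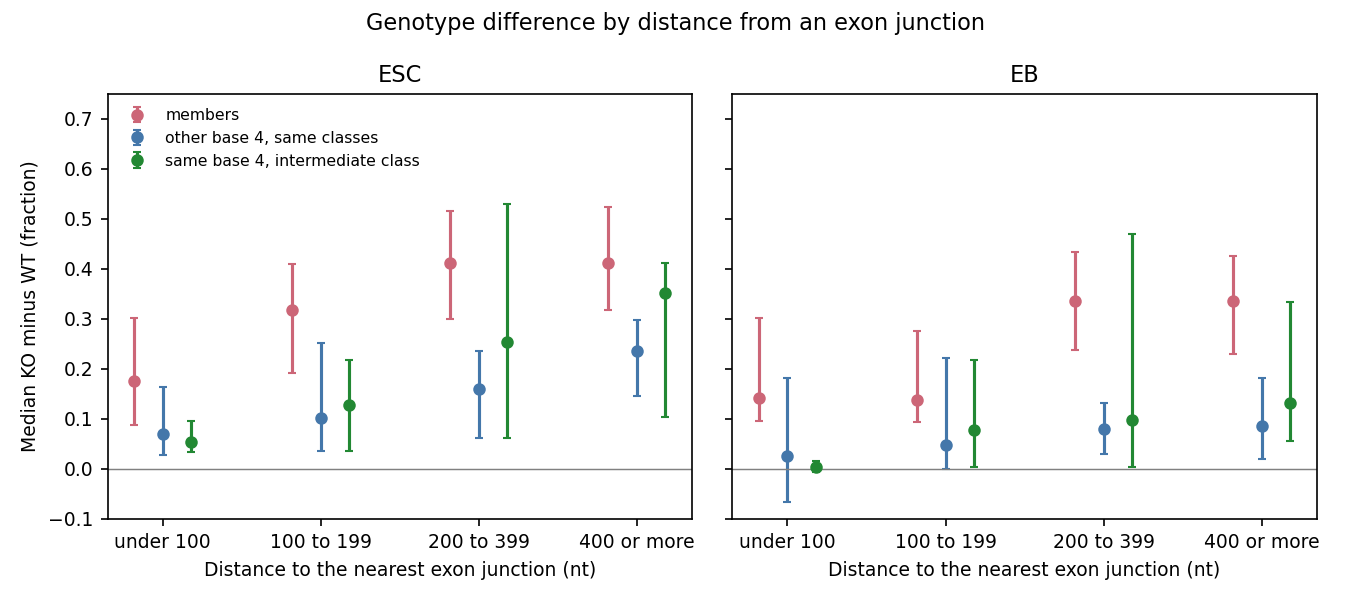
Median KO minus WT cleavage efficiency (fraction, vertical axis) by distance from the nearest exon junction in nt (horizontal axis), with ESC left and EB right; red is member sites, blue AGACA sites of the same classes, green intermediate GGACA sites, and bars are 95% order-statistic intervals over sites. The ESC medians of member sites go from 0.175 under 100 nt to 0.412 and 0.411 in the farthest bins, and those of intermediate GGACA sites from 0.0547 to 0.353.

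Properties of the 51-nt window around the site, chosen after the data were seen, went with cutting in KO to a small degree. With a GC content under 45% the ESC KO median was 0.892, from 45% to 55% it was 0.861 and above it was 0.710. The correlation of GC with ESC KO efficiency over 396 sites was −0.255 (Pearson) and −0.274 (Spearman), a description over sites that share libraries and base composition with each other. The predicted probability that the site is unpaired gave 0.0606 and 0.0561. The distance to the previous ACA went with ESC KO medians of 0.882 up to 30 nt, 0.821 from 31 to 100 nt and 0.742 above. For the next ACA the medians had another order, 0.742, 0.825 and 0.803 in the same bins. Whether these go with the base after the motif was not tested.

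Between the stages, KO values were nearly the same and WT values were slightly higher in EB. The EB minus ESC difference in KO had a median of 0 over 314 sites, with 22 sites higher by at least 0.10 (7.01%, against 7.1% of all listed sites) and 34 lower (10.8%, against 11.1%). In WT the median was 0.0414 (0.0287 to 0.0541) over 395 sites, with 114 higher (28.9%, against 26.4% of all listed sites) and 18 lower (4.56%, against 5.51%). Subtracting column medians shifts this WT difference by 0.0963 and turns it to −0.0549. The median WT difference over all listed sites was 0.0408, less than that shift. The KO minus WT difference was smaller in EB than in ESC by a median of 0.0461 over 272 sites, with 83 sites lower by at least 0.10 (30.5%, against 32% of all listed sites) and 16 higher (5.88%, against 5.53%). The shares were near those of all listed sites. With column medians subtracted the median difference of the effects turned to 0.0610.

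The comparisons in ESC and EB use separate WT and KO columns. Of the 272 sites with all values, 212 were higher in KO by at least 0.10 in ESC and 197 in EB, and 186 were so in both, which is 87.7% of the ESC list and 94.4% of the EB list. Over all 759 listed sites with 4 values these shares were 69.3% and 92.2%, and 37.2% were higher in both stages, against 68.4% of member sites. In ESC alone were 26 of the 272 member sites, in EB alone 11, in neither 49, and no site was lower by that size in both. Of the 759 listed sites, 125 were so in ESC alone, 24 in EB alone and 328 in neither, and 3 were lower in both. Over these sites the differences had a Pearson correlation of 0.906 and a Spearman correlation of 0.904, as a description.

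**Figure D5:**
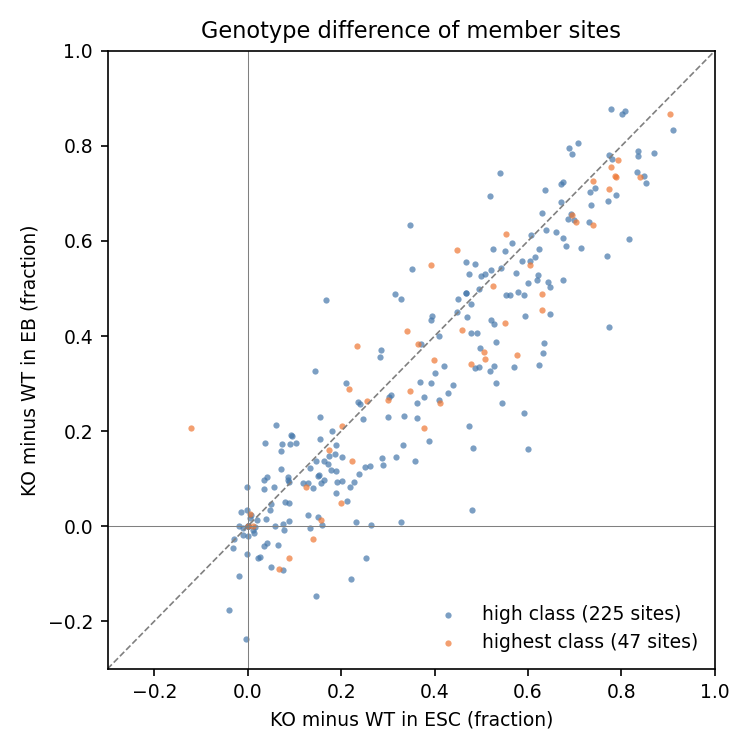
KO minus WT cleavage efficiency (fraction) in ESC (horizontal axis) and EB (vertical axis), 1 point per member site with all 4 values, high class in blue (225 sites) and highest class in orange (47 sites), with a dashed line of equal values. Most points lie in the upper right, 186 of them at or past 0.10 in both stages, and more lie below the dashed line than above it.

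Mdm2, which encodes the ubiquitin ligase that limits p53, had the largest upward difference in WT from ESC to EB, from 0.347 to 0.767, while its KO values were 0.947 and 0.929. The lysosomal gene Plbd2 went from 0.179 to 0.528 in WT with KO values of 0.953 and 0.947. Gata4 was listed at 0 in ESC WT and 0.368 in EB WT and had no KO value, and Ube2o (0.516 and 0.933) and Cnpy3 (0.0769 and 0.432) likewise had WT values alone. In the other direction, Tanc1 went from 0.459 to 0.258 in WT and was at 1 in both KO columns, Piezo1 from 0.697 to 0.509, and the RNA polymerase III subunit gene Polr3e from 0.176 to 0.0233. In KO the RNA-binding protein gene Hnrnpul1 went from 0.667 to 0.964 and Abr from 0.216 to 0.517, while 9530068E07Rik went from 0.873 to 0.667 and Espl1, the separase gene, from 0.633 to 0.455. The smaller effect in EB was largest for Cenpl, a centromere gene, at 0.132 and 0.611 in ESC WT and KO and 0.417 and 0.450 in EB, and for Mdm2. Such single sites have no replicate check.

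The same 11 bases occurred in several genes: 71 sequences were shared by 163 member sites. In 114 pairs of member sites with identical 11 bases in different genes, the median absolute difference of ESC KO efficiency was 0.181 over the 69 pairs with both values, against 0.248 over all pairs of member sites. For KO minus WT in ESC it was 0.233 over 43 pairs against 0.265. Pairs within a gene differed by 0.217 and 0.219. Sites with the same letters therefore still differed by much of the distance between any member sites.

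The m6A readers Ythdf1 and Ythdf2 supplied all 4 member sites of the list of m6A writers, erasers, readers and binding proteins. The shared sequence tatGGACAact lay 137 nt from a junction in both genes, and the 51-nt windows matched at 40 positions (78.4%). Ythdf1 (chromosome 2, position 180646775, minus strand) was at 0.250 in WT and 0.921 in KO in ESC, and at 0.268 and 0.949 in EB. Ythdf2 (chromosome 4, position 131761493, minus strand) was at 0.321, 0.924, 0.338 and 0.895 in the same order. The values were close in every column, partly uncut in WT and nearly fully cut in KO. The other Ythdf1 site (position 180645642), tcaGGACAagt, was listed at 0 in ESC WT and 0.890 in ESC KO. The other Ythdf2 site (position 131761262), gatGGACAgtc, was at 0 and 0.707 in ESC and 0.0171 and 0.823 in EB. No protein or RNA level is given by these values.

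Gene lists of the cell's main functions, chosen with earlier results of these data known, held between 1 and 9 member sites each. In ESC, where 80.0% of member sites were past 0.10 and their median was 0.374, all 7 chromatin sites with both values (median 0.672), all 5 of the cell cycle (0.660), all 5 of translation (0.688) and all 4 of the m6A list (0.689) were higher. In EB 72.5% of member sites were past 0.10, with a median of 0.284, against 41.9% of all listed sites. The same lists had 4 of 7 (0.662), 5 of 5 (0.618), 4 of 4 (0.658) and 3 of 3 (0.681) there. Among chromatin genes, Rbbp5 and the MAX partner gene Mga (0.0411 in ESC WT and 0.818 in ESC KO) had large differences, and the histone methyltransferase gene Dot1l had 0.0750 and 0.264. Ccnd1, the cyclin D1 gene, was at 0.311 and 0.971 in ESC and 0.330 and 0.948 in EB, and Ccnf at 0.150 and 0.797 in ESC. The translation initiation genes Eif4g1 (0.144 and 0.915), Eif2a (0.112 and 0.800) and Eif2s2 (0.445 and 0.966) all had their KO value well above WT in ESC.

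Of the 9 nuclear pore and transport sites, 6 were higher and 1 lower in ESC (median 0.171), and 6 of 7 were higher in EB (0.207). Beside the counts of this paragraph, 80.0% of member sites and 55.4% of all listed sites were higher in ESC. In EB these shares were 72.5% and 41.9%. Their ESC differences ranged from 0.852 in Nup98 to −0.121 at the second Ranbp2 site. The first Ranbp2 site (gatGGACAgta) was at 0.0862 and 0.864 in ESC, Ipo9 at 0.0833 and 0.857, and the import receptor gene Tnpo1 at 0.735 and 0.923. The 3 endoplasmic reticulum sites had a median of 0.202, with the chaperone gene Hspa5 at 0.220 and 0.901 in ESC, the protein degradation gene Ufd1 at 0.702 and 0.904, and Pdia4. The lineage, basement membrane and adhesion list had 3 of 3 sites higher in ESC (0.467) and 4 of 4 in EB (0.296), with the cadherin gene Fat1 at 0.407 and 0.935, the basement membrane gene Nid2 at 0.226 and 0.693 and the laminin gene Lamb1 at 0.571 and 0.929 in ESC. The splicing list held Hnrnpul1 alone, and of 3 pluripotency and LIF signalling sites only that of Il6st had both values. Lists this small say nothing of the functions as a whole.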

How the data were processed

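Groups were taken from the labels of the 10 polyA libraries. The submitters' processing notes list STAR 2.5.3a, bedtools 2.26.0 and the build mm9 without saying what each did. The deposited cleavage efficiency of each site in each group is a fraction from 0 to 1, per the file headers and values. The sources used here do not give how reads were counted, the depth, whether a column pools libraries, or how classes were made. The table held 0 value columns of no group.

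Differences were taken site by site with no filter, and a difference of 0.10 was counted. Ratios were taken only at sites with a KO value of 0.20 or more. No pseudocount was used. Planned fits over libraries (limma, replicate numbers as a block) need a value per library, so no p-value is given. Intervals are 95% order-statistic intervals over sites. Sites are not replicates. The members and lists were chosen with earlier results of these data known. The scripts were tested on simulated data (Python 3.11.15, pandas 2.3.3, numpy 2.4.6, scipy 1.17.1).

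Gene names came from a match of the 11 bases to GENCODE M21 transcripts on the same chromosome and strand. Matches lay at most 100 nt from the transcript position and 10 Mb from the genome position of the table. They were kept where the shift between builds equalled that of a site in another gene among the 3 neighbours on each side. Of 1626 sites 1473 matched and 1423 passed. A separate search on the opposite strand matched 54 and was used for no gene name. Coordinates are the deposited mm9 positions, and none was converted. Whether they are 1-based and fall on the A itself was not checked. Windows of 51 nt were folded with ViennaRNA 2.7.2.

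Sites were named by a rule of size: the 10 largest upward and 5 largest downward KO minus WT differences per stage, 5 each way between stages, genes with 3 member sites, and up to 4 per list. Sites on chromosome 18 were counted and not named. Pom121, the 5′ Arid1a site, some comparisons between named sites and all window features were chosen after seeing the data.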

Additional observations from a re-analysis of the deposited data

Results flagged for a closer look

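At 5 named member sites KO minus WT had opposite signs in ESC and EB, and the difference between the stages was not tested. The second Ranbp2 site had −0.121 in ESC and 0.207 in EB, a difference of 0.329. Dus1l, a tRNA dihydrouridine synthase gene, had 0.145 and −0.148, a difference of −0.293. A site of Cth, an enzyme gene of cysteine synthesis, had 0.221 and −0.111, a difference of −0.331. 9530068E07Rik had 0.253 and −0.0667, a difference of −0.320. Rragb, a gene of amino acid signalling to mTOR, had −0.00129 and 0.0831, a difference of 0.0844, with the ESC value close to 0. Each rests on 4 single values.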

How the results depend on the processing

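Of 121 alternative values, 82 stayed within the interval over sites of the main value (counts within 1.5 times). There were 7 with the opposite sign, some of them inside that interval. Values on the logit scale have another unit, so their place inside or outside that interval carries no meaning. Subtracting each column's median over complete sites took the KO minus WT medians to 0.000633 (ESC) and 0.0172 (EB), with 151 and 127 sites higher by at least 0.10 in place of 304 and 221. It took EB minus ESC to −0.0549 in WT, with 22 sites higher in place of 114, and to 0.0107 in KO, and the difference of the effects to 0.0610, with 23 sites lower in place of 83. These moves come from the medians of whole columns, which need not equal the median difference over sites. Limiting the sites to KO values from 0.20 upward gave KO minus WT medians of 0.450 and 0.364, and a gap to intermediate GGACA sites of 0.324 in EB. For G after the motif against other bases they gave KO efficiency gaps of −0.170 (ESC) and −0.174 (EB), and KO minus WT gaps of 0.00601 and −0.0499 in place of −0.226 and −0.224. Means in place of medians gave −0.117 and −0.114 for the last pair, and 0.191 for the ESC gap to intermediate GGACA sites. A size of 0.20 left 22 sites higher in EB WT, 2 lower in EB KO and 25 with a smaller effect. Sites with means between 0.05 and 0.95 gave 0.0647 for EB minus ESC in WT.

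The logit scale changes the unit. It gave 2.23 and 2.01 for KO minus WT, 0.344 for EB minus ESC in WT, −0.378 for the difference of the effects, 0.462 and 0.216 for highest against high, −2.36 and −2.20 for KO efficiency before G, −0.782 and −1.10 for KO minus WT there. It gave 1.20 and 0.615 for sites 100 nt or more from a junction against nearer ones, 1.07 and 1.26 against AGACA sites, and 1.45 and 1.76 against intermediate GGACA sites. The 3′ UTR against CDS gap in EB went from 0.0294 to −0.138, with means to −0.0344 and at 100 nt or more from a junction to −0.0650. In ESC it went from −0.0407 to 0.0489 on the logit scale, so no direction holds there; the cause was not tested. No paired analysis was possible because the table gives 1 value per site and group, and the replicate block and leaving out replicates were not run for that reason. The depth is unknown, so no difference at a single site can be set against counting error.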
